A study of Mus musculus with 6 samples.

Results

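The Wnt ligands, their receptors and their secreted modulators were followed in mouse embryonic fibroblasts during reprogramming, in which delivered transcription factors turn a differentiated cell toward pluripotency. Members were all genes on the array named Wnt, Fzd, Sfrp, Dkk or Rspo with a number, together with Frzb, Wif1, Lrp5, Lrp6, Ror1 and Ror2. This gave 47 genes of the 18193 named by single-gene probe sets: 19 Wnt ligands, 4 R-spondins, 10 Frizzled receptors, 4 co-receptors and 10 secreted antagonists. The fibroblasts, of strain B6CBAF1/J, received either O(5R)SK (an OCT4 version labelled 5R, with SOX2 and KLF4) or O(WT)SK (wild-type OCT4, with the same SOX2 and KLF4). Cells of both kinds grew in medium for embryonic stem cells, which held fetal bovine serum and leukemia inhibitory factor. RNA was taken on days 3, 5 and 7, with a single Affymetrix array for every combination on each day (6 arrays). The labels do not say what 5R stands for, how the factors were delivered, or whether the days came from separate cultures. No array had a replicate, so the p-values below rest on how these 6 arrays scatter around a fit of combination and day. The day test takes the combinations as matched pairs, and the combination test takes the days so. This scatter may be technical, and in both tests it also holds any real change of the combination difference with day.

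Wnt proteins are secreted lipid-modified ligands that bind Frizzled receptors. With the co-receptors LRP5 or LRP6 they stabilise beta-catenin, which then acts with TCF/LEF factors on target genes, while other Wnts signal through ROR1 or ROR2 without beta-catenin. R-spondins strengthen the response by keeping Frizzled receptors at the cell surface. The SFRP proteins, FRZB and WIF1 bind Wnts outside the cell, and several DKK proteins bind LRP5 and LRP6. The pathway helps to maintain mouse embryonic stem cells, and fibroblasts of the embryo are a known source of Wnt ligands and of their antagonists.

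Intensities were used as log2(intensity + 16), and a gene was tested if its mean over the 6 arrays lay above an intensity of 33.5. Of the 47 members 32 passed this filter and 15 lay below it. Pearson's r between arrays, taken across the 12622 tested genes (which are not independent of each other), was 0.970 to 0.991. All 10 listed fibroblast markers, among them Col1a1, Thy1 and Pdgfra, passed the filter. Their summed intensity read 105385, 99504 and 89278 on days 3, 5 and 7 with O(5R)SK, and 112887, 114312 and 119780 with O(WT)SK. The sum was thus lower on each later array with O(5R)SK and higher on each with O(WT)SK. Most of it came from the bright genes Col1a2, Fn1 and S100a4. Of the 6 arrays, that of O(5R)SK on day 7 had the lowest maximum (34285) and the highest median (68.0). Actb, too, read 23453 there and 36613 on its O(WT)SK counterpart. On that day Pdgfra, Lum, Col1a1 and Postn were higher on the O(5R)SK array, and the other markers in the sum were lower. The part of array differences in these sums was not tested. Of the 10 fibroblast markers, Thy1 (-0.71, adjusted p = 0.0239) and Postn (-0.65, adjusted p = 0.0339) fell by day 7 and 0 rose. Markers of other cell types also moved with time. Here and for the fibroblast markers, rose and fell mean an adjusted p under 0.05 in limma for day 7 minus day 3. Of all genes tested 6.52% rose and 3.68% fell. Of 5 tested pluripotency markers 3 rose by day 7 and 0 fell, and the sum over all 8 read 857 on the O(5R)SK array and 358 on the O(WT)SK array of day 7, against 189 and 126 on day 3, with Nanog, Zfp42 and Tdgf1 below the filter. Of 4 tested epithelial markers 2 rose, with Cldn4, Cldn7, Ocln and Esrp1 below the filter. Of 6 smooth muscle markers 4 fell, of 6 tested macrophage markers 5 fell (summed intensity over 7 markers of 2791 and 3283 on day 7, against 7754 and 8328 on day 3) and of 4 tested adipocyte markers 2 fell, with Adipoq below the filter. The endothelial markers Pecam1, Cdh5 and Tie1 and the muscle regulators Myod1, Myog and Myf5 lay below the filter. The endothelial markers Kdr and Emcn and the muscle genes Des and Ckm passed it. Of 5 neural markers on the array 4 passed the filter, and Sox1 lay below it. Among the tested endothelial, skeletal muscle and neural markers 0 were called between day 7 and day 3. The part of these cell types in the results below was not tested, and in bulk RNA fewer cells of a type and less RNA per cell cannot be told apart.

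Day 7 was set against day 3 over both combinations together, to follow the changes with time. Genes for secreted Wnt antagonists were higher on day 7: Sfrp1, Sfrp4, Frzb and Dkk2 rose, by 2.08-fold to 4.36-fold. Sfrp2 was called higher too, but it passed the filter only through days 5 and 7. Its place in the counts below is therefore no support for a rise. The R-spondin gene Rspo3 and the receptor gene Ror1 rose as well. No Wnt ligand and no Frizzled receptor passed the test in either direction. Of these only 10 and 9 were tested, and 10.2% of all genes tested were called, so 0 lies near that share. In limma 7 of 32 tested members were called higher at an adjusted p of 0.05 and 0 lower, beside 6.52% of all genes tested that were called higher and 3.68% called lower. At an unadjusted p under 0.05 stood 13 members (30.6% of all genes), of which 11 were higher (17.6% of all genes) and 2, Fzd2 and Fzd7, lower (13% of all genes). All 7 called members were at least 2-fold higher, as were 2.53% of all genes. The median log2 difference was 0.25 over the tested members and 0.03 over all genes tested. With the arrays shifted to a common median, which moved the median gene by 0.10, these medians were 0.15 and -0.07, and the all-gene calls split into 579 higher of 1172 in place of 823 higher of 1287, while the same 7 members were called. With any 1 of the 4 arrays of days 3 and 7 left out limma called 0 members and 0 genes, and with dim genes kept in it also called 0 of 47 members (adjusted p between 0.0618 and 0.140 for the 7).

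**Figure D1:**
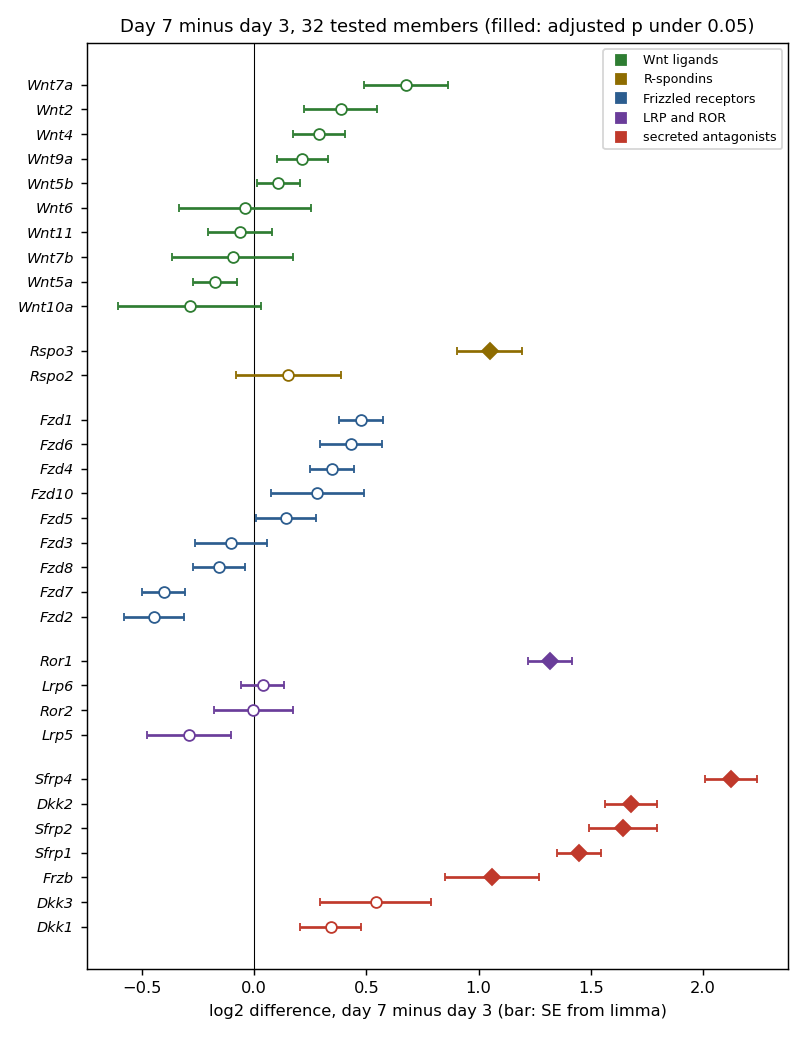
Log2 difference of day 7 minus day 3 (horizontal axis, fitted over both combinations, bars are limma's SE) for the 32 tested members, grouped by role, with filled diamonds for an adjusted p under 0.05. The filled diamonds are Rspo3, Ror1 and 5 of the 7 tested antagonists, and the Frizzled receptors lie between -0.45 and 0.48. Sfrp2, among these antagonists, passed the filter only through the later days.

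Of 19 ligand genes 10 passed the filter, and 0 were called between day 7 and day 3, where 10.2% of all genes tested were. Wnt7a, a ligand known from limb and nervous system patterning, read 162, 225 and 222 on days 3, 5 and 7 with O(5R)SK, and 114, 263 and 230.3 with O(WT)SK. Both day 3 arrays were the lowest, and the difference of 0.67 (SE 0.187) had an adjusted p of 0.0944; it passed under 2 of 7 alternatives that keep all arrays (adjusted p between 0.0315 and 0.209). Wnt5a, which acts mainly without beta-catenin through ROR receptors, read 3375, 3073 and 2939.7 with O(5R)SK and 2950.3, 2917 and 2658 with O(WT)SK. It was lower on each later array in both combinations, by little (-0.17, SE 0.097, adjusted p = 0.297). Wnt2 read 492, 444 and 538 with O(5R)SK and 482, 607 and 762 with O(WT)SK, a difference of 0.38 (adjusted p = 0.197). Wnt4, a ligand of kidney and gonad development, and Wnt9a had differences of 0.29 and 0.22, Wnt5b of 0.11, and Wnt6, Wnt11, Wnt7b and Wnt10a of -0.04, -0.06, -0.09 and -0.29. The other 9 ligand genes, Wnt1, Wnt2b, Wnt3, Wnt3a, Wnt8a, Wnt8b, Wnt9b, Wnt10b and Wnt16, lay below the filter, with intensities between 0.532 and 62.2, and have no tested value.

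Among the R-spondins, which amplify Wnt responses, Rspo3 rose. It read 196, 333 and 453 on days 3, 5 and 7 with O(5R)SK, and 199.6, 239.5 and 402 with O(WT)SK. The 2 combinations began at the same level and both rose from day to day. The difference was 1.05 on the log2 scale (2.07-fold, SE 0.145, adjusted p = 0.0252). A second Rspo3 probe set, below the filter, read -0.42, and with the mean of both the value was 0.31 and no longer called. Rspo2 had a difference of 0.15 (adjusted p = 0.700), and Rspo1 and Rspo4 lay below the filter, at no more than 23.0 on any array.

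The Frizzled receptor genes differed in both directions by small amounts. Of 10 genes 9 passed the filter, and 0 were called, where 10.2% of all genes tested were. There were 5 positive and 4 negative differences, and 53.4% of all genes tested were positive. Fzd1 read 956, 984 and 1314 over days 3, 5 and 7 with O(5R)SK, and 995, 956 and 1413 with O(WT)SK. The day 7 arrays were the highest in both combinations (0.48, SE 0.099, adjusted p = 0.0545). Fzd7, a receptor known in pluripotent stem cells, read 3205, 2626 and 2498 with O(5R)SK and 3194, 2447 and 2337 with O(WT)SK. Its 2 courses ran close together and were lower on each later array (-0.40, SE 0.097, adjusted p = 0.0712). Fzd2 read 1344, 1054 and 868 with O(5R)SK and 1521, 1188 and 1258 with O(WT)SK (-0.45, SE 0.133, adjusted p = 0.108). Fzd4 and Fzd6 had differences of 0.35 and 0.43, Fzd10 and Fzd5 of 0.28 and 0.14, and Fzd3 and Fzd8 of -0.10 and -0.15. Fzd1 passed under 3 of 7 alternatives that keep all arrays, as did Fzd7 downward, and Fzd2 under 2. A second probe set above the filter read 0.25 for Fzd1 and 0.02 for Fzd7, and the other probe sets of Fzd2 read -0.35 and -0.07. With the mean of probe sets the Fzd7 difference was -0.19. Fzd9 lay below the filter, at 7.51 to 36.8.

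**Figure D2:**
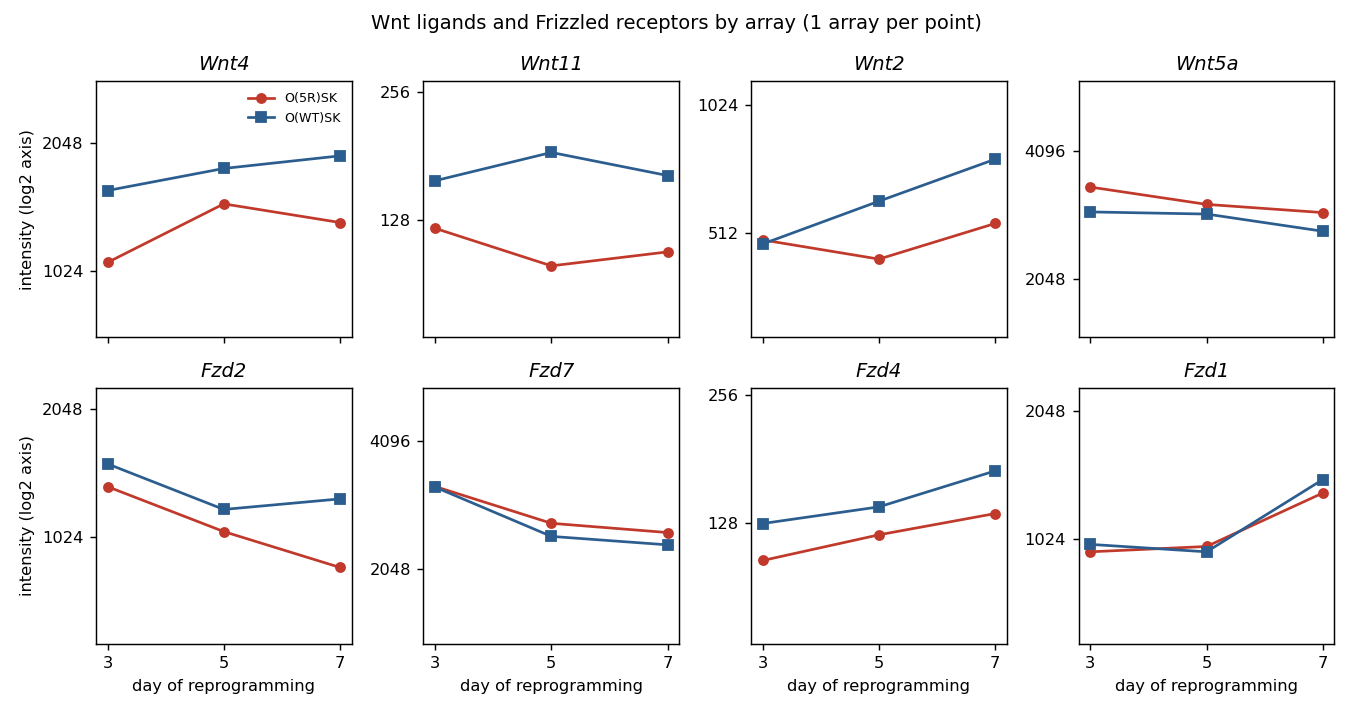
Intensity (log2 axis, a different range in each panel) against day for 4 ligand and 4 Frizzled genes, with O(5R)SK as circles and O(WT)SK as squares, 1 array per point. Wnt4 and Wnt11 lie lower with O(5R)SK on each day, and Fzd7 and Fzd1 run close together in both combinations.

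Of the co-receptor genes, Ror1 rose while Ror2, Lrp5 and Lrp6 were not called. Ror1, a receptor tyrosine kinase-like Wnt receptor, read 220.4, 347 and 551 on days 3, 5 and 7 with O(5R)SK, and 242, 381 and 652 with O(WT)SK. It rose from day to day in both combinations (1.32, 2.49-fold, SE 0.098, adjusted p = 0.00991). Its 2 other probe sets lay below the filter and read 0.47 and -0.33, and with the mean of all 3 the value was 0.49 with an adjusted p of 0.106. Ror2, of the same family, read 306, 289.8 and 385 with O(5R)SK and 349.5, 265 and 276 with O(WT)SK. The day 3 and day 7 values overlapped and the difference was -0.004 (SE 0.177). Lrp6 read between 705 and 754 on all 6 arrays, with a difference of 0.04 (SE 0.096) that turned to -0.06 with a common median, and Lrp5 read -0.29 (SE 0.188, adjusted p = 0.358).

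The secreted antagonists held 5 of the 7 called members. Of 10 genes 7 passed the filter, all 7 had both day 7 arrays above both day 3 arrays (31.5% of all genes tested did), and 5 rose. Over all roles 17 members had both day 7 arrays above, and 3, Wnt5a, Fzd2 and Fzd7, had both below (26.2% of all genes). Sfrp2 passed the filter only through days 5 and 7, so its place among the tested genes already requires high late values; Wnt10a passed only through the earlier days and Dkk1 only through 1 combination. RefSeq's promoter table (GRCm38.p6) holds 31 of the 47 members and 4 of the 7 called ones. The 250 bases before the start of these 4 genes were searched for letters bound by the delivered factors and by TCF/LEF. The promoters shown are those of the called members it holds, the antagonists Sfrp2, Frzb and Dkk2 and the co-receptor Ror1. It lacks Rspo3, Sfrp1 and Sfrp4. Capitals mark a match on either strand to CTTTGA (TCF/LEF), ATGCAAAT (the octamer of OCT4), GGGTGNGG (KLF) or CNTTGTT (SOX). No printed matches of different motifs overlap. Sfrp2 lies at chr3:83766071-83766320, plus strand, Frzb at chr2:80447397-80447646, minus strand, Dkk2 at chr3:132085042-132085291, plus strand, and Ror1 at chr4:100095541-100095790, plus strand, each 5′ to 3′ on the strand of the gene.
Sfrp2: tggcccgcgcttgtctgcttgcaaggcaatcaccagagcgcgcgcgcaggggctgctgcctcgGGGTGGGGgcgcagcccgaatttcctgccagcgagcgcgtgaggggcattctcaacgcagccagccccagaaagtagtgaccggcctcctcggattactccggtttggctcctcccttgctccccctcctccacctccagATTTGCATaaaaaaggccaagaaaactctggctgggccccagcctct
Frzb: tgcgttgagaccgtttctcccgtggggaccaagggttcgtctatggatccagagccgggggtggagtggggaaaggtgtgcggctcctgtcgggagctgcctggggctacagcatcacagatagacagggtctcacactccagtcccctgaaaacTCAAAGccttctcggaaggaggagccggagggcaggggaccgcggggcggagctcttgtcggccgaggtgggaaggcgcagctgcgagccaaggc
Dkk2: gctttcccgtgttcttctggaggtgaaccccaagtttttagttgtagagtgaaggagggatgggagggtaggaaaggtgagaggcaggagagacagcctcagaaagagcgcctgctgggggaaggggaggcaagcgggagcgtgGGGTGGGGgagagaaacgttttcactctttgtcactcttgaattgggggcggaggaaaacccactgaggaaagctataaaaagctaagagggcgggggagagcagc
Ror1: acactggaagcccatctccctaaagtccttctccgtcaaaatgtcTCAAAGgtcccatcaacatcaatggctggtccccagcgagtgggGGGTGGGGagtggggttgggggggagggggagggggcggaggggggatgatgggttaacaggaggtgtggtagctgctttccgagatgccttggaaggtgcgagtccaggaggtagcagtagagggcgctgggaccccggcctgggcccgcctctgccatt

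The octamer stood in the Sfrp2 promoter, 47 bases before the start, and in 1.6% of 32841 promoters of that length. CTTTGA stood in those of Frzb and Ror1 (13.8% of all promoters), GGGTGNGG in those of Sfrp2, Dkk2 and Ror1 (14.9%), and CNTTGTT in 0 of the 4 (12.1%). A match describes letters in these windows and no binding was measured.

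Sfrp4 had the largest difference among the tested members. It read 189, 379 and 876 on days 3, 5 and 7 with O(5R)SK, and 125, 213 and 597 with O(WT)SK. Each later array was higher than the one before, in both combinations, and day 7 minus day 3 was 2.12 in each. The fitted difference was 2.12 (4.36-fold, SE 0.114, adjusted p = 0.00765), rank 30 of 12622 genes. Dkk2, which encodes an LRP-binding antagonist, read 778, 1578 and 2802 with O(5R)SK and 899, 1713 and 2626 with O(WT)SK. The combinations crossed between days 5 and 7 and both rose throughout (1.68, 3.20-fold, SE 0.117, adjusted p = 0.00881).

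Sfrp2 read 41.2, 98.0 and 149 with O(5R)SK, and 23.6, 96.1 and 118 with O(WT)SK. Most of its increase fell between days 3 and 5, from values near or below the filter, and it amounted to 1.64 (3.12-fold, SE 0.15, adjusted p = 0.0127). Since its day 3 values are dim, the size depends on the pseudocount, and with 64 in place of 16 it was 1.04. Sfrp1 read 209, 306 and 599 with O(5R)SK and 222, 299 and 629.6 with O(WT)SK. The 2 courses nearly coincided (1.45, 2.72-fold, SE 0.098, adjusted p = 0.00848). Its 4 other probe sets, all above the filter, read 0.44, 0.58, 0.96 and 1.74, so each was higher on day 7, and with the mean of all 5 the value was 1.03 with an adjusted p of 0.0570.

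Frzb read 59.4, 101 and 192 with O(5R)SK, and 85.8, 111 and 144 with O(WT)SK. The change over days was 1.46 with O(5R)SK and 0.66 with O(WT)SK, and the test of a difference in slope did not pass (0.81, adjusted p = 0.647). The joint difference was 1.06 (2.08-fold, SE 0.211) and just passed (adjusted p = 0.0499). It missed after quantile normalization (0.95, adjusted p = 0.0538), and a second Frzb probe set, at 30.2 to 47.1, read 0.07. Dkk3, a divergent member whose role as a Wnt antagonist is less settled, read 255, 162 and 356 with O(5R)SK and 184, 234 and 292 with O(WT)SK (0.54, SE 0.248, adjusted p = 0.222). Dkk1, the best known LRP antagonist, was dim, at 20.7 to 54.0, with a difference of 0.34 (adjusted p = 0.176). Wif1 missed the filter and has no tested value. It read 20.0, 35.2 and 108 with O(5R)SK and 10.2, 17.8 and 39.0 with O(WT)SK, and was thus higher on each later array in both combinations. Sfrp5 and Dkk4 lay below the filter, at no more than 38.5.

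**Figure D3:**
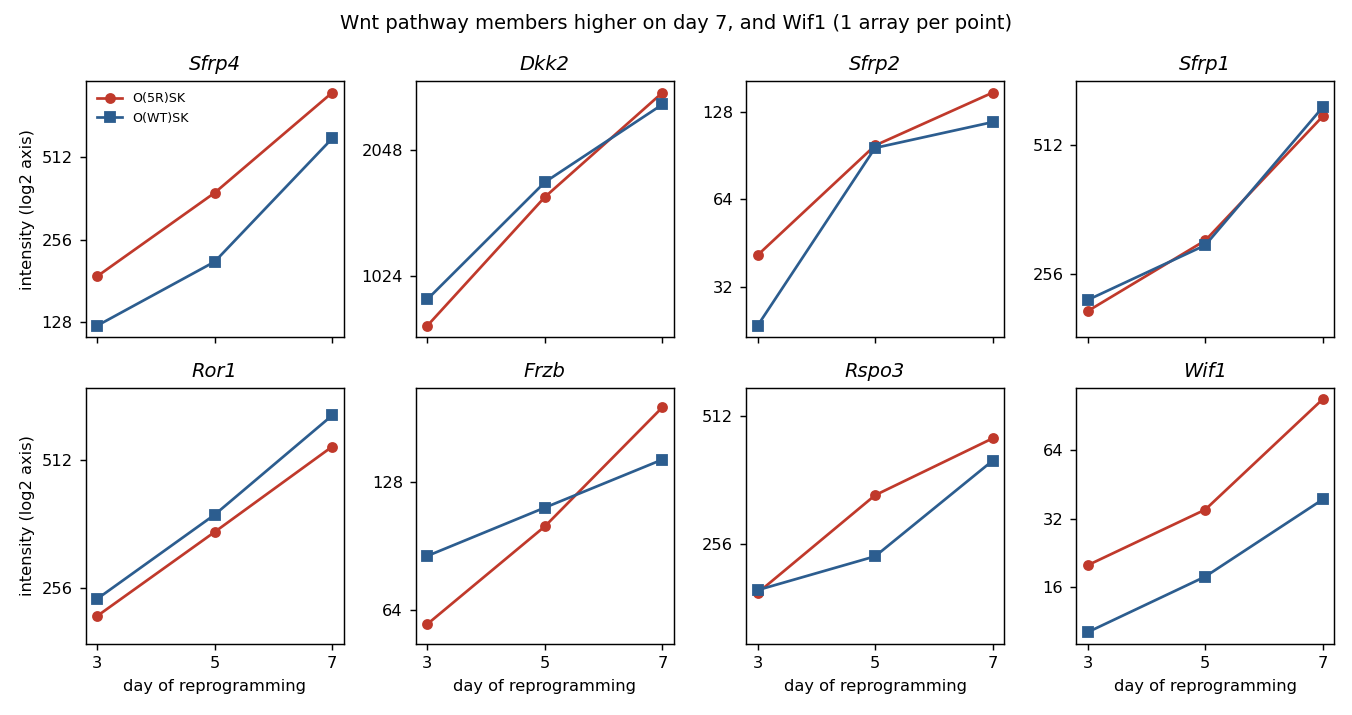
Intensity (log2 axis, a different range in each panel) against day for the 7 members called higher on day 7 and for Wif1, which was not tested, with O(5R)SK as circles and O(WT)SK as squares, 1 array per point. All 8 genes are higher on each later day in both combinations, and Sfrp4 and Wif1 lie higher with O(5R)SK on each day.

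Both combinations were higher on each later day for 8 of the 32 tested members, where 14.9% of all genes tested were: the 7 called genes and Fzd4. Wnt5a and Fzd7 were lower on each later day in both, as were 12.9% of all genes. At least 2-fold changes from day 3 to day 7 in both combinations, in the same direction, were found for 5 members, Sfrp1, Sfrp2, Sfrp4, Dkk2 and Ror1, and for 2.8% of all genes tested. All 5 were upward, as were 2.01% of all genes. Sfrp2, in both counts of rising members, passed the filter only through days 5 and 7 and adds no support to these counts. Of 25 further probe sets of the members that lay above the filter, 20 had the sign of the one used for day 7 minus day 3 and 15 for O(5R)SK minus O(WT)SK.

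Other genes of the Wnt pathway came from a list of 77, with 75 on the array and 64 above the filter. Of these 14 rose by day 7 and 0 fell, beside 6.52% of all genes called higher and 3.68% called lower, and their median was 0.21, against 0.03 over all genes tested. The largest rises were those of Apcdd1 (2.18, SE 0.237), a membrane-bound Wnt inhibitor, and Sostdc1 (2.07, SE 0.112), a secreted antagonist of Wnt and BMP signals. Apcdd1 read 328, 914 and 2052 with O(5R)SK and 344, 543 and 1209.8 with O(WT)SK, and Sostdc1 read 106, 219 and 451 with O(5R)SK and 121, 262 and 613 with O(WT)SK. Both rose on each day in both combinations. The R-spondin receptor genes Lgr5 (1.60, SE 0.152) and Lgr6 (1.12, SE 0.112), the sclerostin receptor gene Lrp4 (1.47, SE 0.129) and the Wnt-responsive matricellular gene Ccn5 (1.31, SE 0.133) followed, with adjusted p-values between 0.00765 and 0.0171 for these 6. The other 8 called genes were Sost, Gpc6, Porcn, Prickle1, Prickle2, Dact2, Nkd2 and Axin2. Of the 22 tested cytoplasmic transducers, such as Ctnnb1, Gsk3b and Dvl1, 1 rose (Dact2), and of 13 nuclear factors, such as Tcf7l1 and Lef1, 0 were called.

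O(5R)SK was set against O(WT)SK on the same days. The OCT4 versions differed, and Pou5f1 also read 0.82 higher with O(5R)SK in limma (SE 0.076, adjusted p = 0.217). Version and Pou5f1 signal cannot be told apart in this comparison. Among the members the largest values were a higher Sfrp4 and lower Wnt11, Wnt10a and Wnt4 with O(5R)SK. None passed the threshold: limma called 0 of 32 members and 0% of all genes tested, and the smallest adjusted p among the members was 0.284. At an unadjusted p under 0.05 stood 5 members, Sfrp4, Wnt4, Wnt11, Fzd2 and Fzd4, where 9.35% of all genes did. Sfrp4 was on the higher side (5.44% of all genes) and the other 4 on the lower side (3.91% of all genes). With a trended, robust prior limma called Sfrp4 and Wnt4, beside 0.65% of all genes tested. The median difference was -0.04 over the tested members and -0.01 over all genes tested. O(5R)SK lay above O(WT)SK on all 3 days for 5 members, Sfrp4, Sfrp2, Wnt5a, Fzd7 and Lrp6 (15.9% of all genes), and below it on all 3 days for 8, Wnt4, Wnt5b, Wnt10a, Wnt11, Fzd2, Fzd4, Fzd8 and Ror1 (17.9% of all genes).

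**Figure D4:**
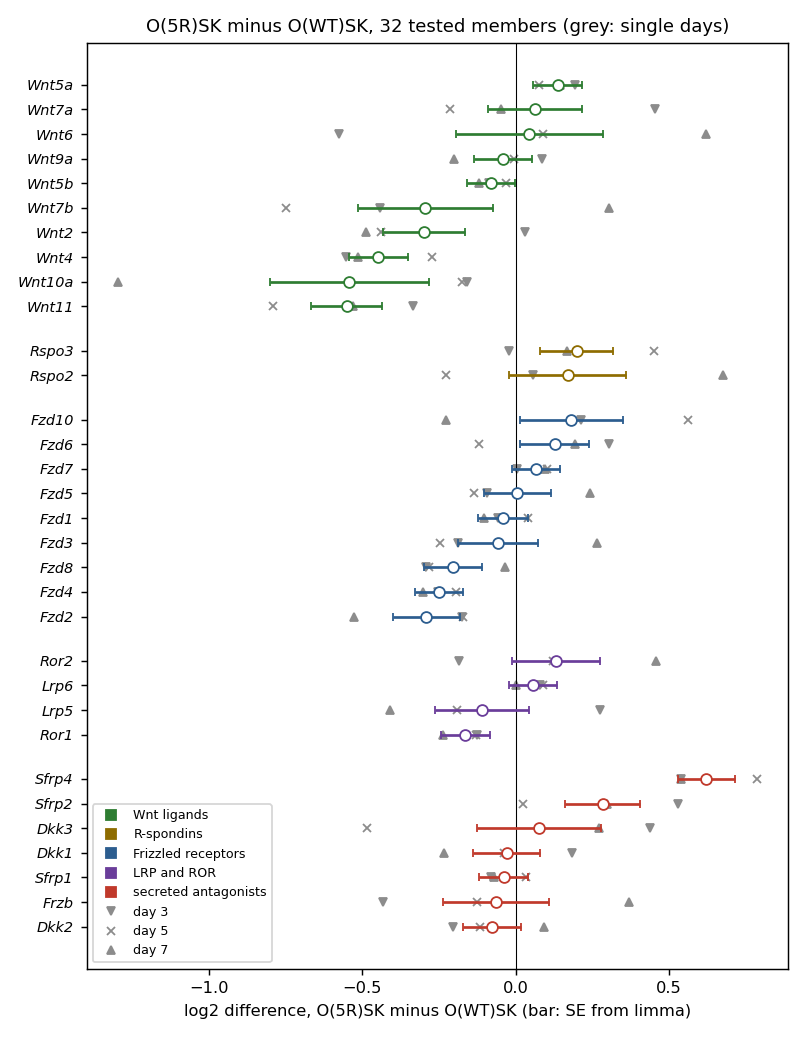
Log2 difference of O(5R)SK minus O(WT)SK (horizontal axis, fitted over the 3 days, bars are limma's SE) for the 32 tested members by role, with grey marks for the differences on single days. No member passed the threshold, Sfrp4 lies highest at 0.62 and Wnt11 lowest at -0.55.

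Of the 10 tested ligand genes 7 had negative differences, with a median of -0.19. Over all genes tested 6714 of 12622 differences were negative, with a median of -0.01. Wnt11, which is known for signalling without beta-catenin, read 122, 99.99 and 108 on days 3, 5 and 7 with O(5R)SK, against 158, 185 and 163 with O(WT)SK. All 3 O(5R)SK arrays lay below all 3 O(WT)SK arrays, and the difference was -0.55 (SE 0.116, SD over days 0.23, adjusted p = 0.368). Wnt4 read 1072, 1472 and 1330.3 with O(5R)SK, against 1582, 1782 and 1908 with O(WT)SK. Here too the arrays of the combinations did not overlap (-0.45, SE 0.096, SD over days 0.15, adjusted p = 0.368), and a second Wnt4 probe set read -0.36. Such separation, with all O(5R)SK arrays below, held for 2 of 32 tested members and 594 of 12622 genes. With all O(5R)SK arrays above it held for 1 member, Lrp6, and 585 genes. Wnt10a read 38.5, 53.2 and 14.2 with O(5R)SK, against 44.9, 62.0 and 58.1 with O(WT)SK. Its difference of -0.54 (SE 0.260, adjusted p = 0.604) comes mostly from the low day 7 value with O(5R)SK, and without that array it was -0.17, while its difference of day 7 minus day 3 turned to 0.28. Wnt10a was the only tested member at least 2-fold apart on any single day (-1.30 on day 7), as were 4.36% of all genes tested. Wnt2 differed by -0.30 and Wnt7b by -0.30 (adjusted p = 0.589 and 0.694), Wnt5a by 0.14, and Wnt5b, Wnt6, Wnt7a and Wnt9a by between -0.08 and 0.06.

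Receptor and co-receptor genes differed less. Fzd2 lay lower with O(5R)SK (-0.29, SE 0.109, adjusted p = 0.530), and its 2 other probe sets read -0.10 and -0.09. Fzd4 read 104, 119.8 and 134 with O(5R)SK, against 127, 139 and 169 with O(WT)SK (-0.25, SE 0.079, adjusted p = 0.485), while another Fzd4 probe set above the filter read 0.41, so that the mean of its probe sets had the opposite sign, at 0.23. The other Frizzled genes lay between -0.20 (Fzd8) and 0.18 (Fzd10), and the co-receptor genes between -0.16 (Ror1) and 0.13 (Ror2).

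Among the antagonists, Sfrp4 was higher with O(5R)SK on each day, by 0.54, 0.79 and 0.54 on days 3, 5 and 7. The difference was 0.62 (1.54-fold, SE 0.093, SD over days 0.14, adjusted p = 0.284), rank 181 of 12622 genes, and it ranged from 0.54 to 0.66 when 1 array was left out. Sfrp2 differed by 0.28 (SE 0.123, adjusted p = 0.573), most on day 3, and Sfrp1, Frzb, Dkk1, Dkk2 and Dkk3 by between -0.08 and 0.08. The untested Wif1 read 0.46, 0.60 and 1.17 higher with O(5R)SK on days 3, 5 and 7, at intensities that lay in part below the filter. Rspo3 and Rspo2 differed by 0.20 and 0.17. Their second probe sets had the opposite sign, at -0.13 for Rspo3 (below the filter) and -0.17 for Rspo2 (above it). Of the 64 other pathway genes 0 were called. Those with the largest differences were Sost (0.84), Apcdd1 (0.47) and the corepressor gene Tle4 (0.36) on the higher side and Lgr5 (-0.38), the Wnt receptor gene Ryk (-0.35) and Sostdc1 (-0.28) on the lower side. With the mean of probe sets these read 0.31 for Sost, 0.21 for Apcdd1, 0.03 for Tle4, 0.15 for Lgr5 and -0.20 for Ryk.

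Whether the course over days differs between the combinations was tested by the difference of slopes, expressed per 4 days. limma called 0 of 32 members and 0% of all genes tested, with 3 of 32 members at an unadjusted p under 0.05, where 7.52% of all genes were. The widest values were 1.20 for Wnt6, which read 58.3, 81.3 and 93.2 with O(5R)SK and 94.7, 75.5 and 55.0 with O(WT)SK, and -1.14 for Wnt10a. Wnt6 was higher on each later array with O(5R)SK and lower on each with O(WT)SK (adjusted p = 0.647). For the 7 genes that rose by day 7 the slope differences lay between -0.23 (Sfrp2) and 0.81 (Frzb). Of the delivered factors, Pou5f1 read 4087, 4042 and 4803 with O(5R)SK, against 2290.1, 2292 and 2741 with O(WT)SK. It differed by 0.82 and Klf4 by 0.005. Sox2 lay below the filter. The labels do not say whether these probe sets detect the delivered copies.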

How the data were processed

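Groups and days came from the sample titles. The deposited values are linear intensities per probe set, which the authors made with affy, per the submitters' processing notes, with version, summary method and background correction not given in the sources used here. On every array the 2% trimmed mean was 500, so scaling was shared, but distributions differed. Of 45101 probe sets, 34945 name 1 gene, 932 several (not used) and 64 are controls (not tested). Unused columns of per-sample values numbered 0. The probe set with the highest mean of log2(intensity + 16) stood for each gene, and the filter was the 40th percentile of probe set means. limma (3.58.1, R 4.3.3) fitted combination and day (3 levels) on 6 arrays, with 2 residual degrees of freedom and a prior of 2.60, and, for slopes, combination by day as a number. Adjusted p-values are Benjamini-Hochberg over all 12622 genes. Leaving out an array kept the probe sets and genes tested. Fold changes on the log2(intensity + 16) scale understate those of dim genes, and the number of arrays limits the precision. The fit was tested on simulated data for day 7 minus day 3. It recovered 40.3% of changes of 1 on the log2 scale, 91.0% of changes of 2 and 98.8% of changes of 4. The simulation drew its noise from limma's own prior and changed 200 of 12622 genes, with no difference between the combinations. In the data 10.2% of genes were called, so these rates need not hold there. Other settings tried were the pseudocount, the filter, quantile normalization, a common median, a trended, robust prior and the mean of probe sets.

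The members and lists were chosen with earlier results of these data known. Members past a threshold or at least 0.5 apart are named with every array. Of other pathway genes up to 6 called ones per direction, or else 3, are named with values. Further genes given by array, those of the ligand and receptor plot and the promoter motifs were chosen after values were seen.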

Additional observations from a re-analysis of the deposited data

How the results depend on the processing

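Without the filter limma called 0 members and 0 other pathway genes between day 7 and day 3. A trended, robust prior gave 12 members (10 higher, 2 lower) and 25 pathway genes, where it called 22.5% of all genes, and for O(5R)SK against O(WT)SK 2 members and 1 pathway gene. The mean of probe sets gave 3 members, all among the 7, and 8 pathway genes. These were 3 of 29 tested members and 8 of 63 tested pathway genes, where it called 7.34% of all genes. This setting left 3 members at least 2-fold apart in both combinations, beside 260 of all genes. Leaving out 1 array gave between 0 and 7 members and between 0 and 12 pathway genes for day 7 against day 3, where 0 came from any day 3 or day 7 array and 7 and 12 from either day 5 array. The fits without a day 5 array called 8.5% of all genes. A pseudocount of 64 left 0 members at least 2-fold apart on a single day, beside 115 of all genes. For the difference of slopes and the factor comparison, every leave-one-out fit called 0 members. The 7 called members kept a positive difference under every alternative in which they were tested. No paired analysis was possible because the labels carry no replicate numbers, other than the matching of the combinations by day that the fit itself holds. The number of arrays limits what could pass, and dim members have no tested value.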
